A study of Danio rerio with 9 samples.

Results

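Transcripts of the adult zebrafish heart were compared with those of the embryonic heart. All assembled transcripts with a mean above 0.1 FPKM (a read-fragment number scaled to the length of the transcript and the size of the library) in either heart were included, which gave 62279 of the 103079 transcripts measured. Among them were 808 of the 813 cardiac lincRNAs, the long intergenic noncoding RNAs that the study listed as expressed in embryonic or adult heart, and these were set against the other 61471 transcripts. The 5 remaining lincRNAs had no heart mean above 0.1 FPKM and were not compared.

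RNA came from wild-type fish, which the study's methods give as the WIK strain. The 3 embryonic heart samples were 4 days old and the 3 adult heart samples 6 months old, and no treatment is given for either. Adult muscle from wild-type adult fish (3 samples) entered the statistical fit and is cited here only as a reference level. The study's methods call them biological samples. The number of hearts in a sample is not given in the sources used here, and the p-values measure the spread between these samples. Each value is tied to an identifier of the assembly and to no gene name, so the tissue labels could not be checked against marker genes of cardiomyocytes, blood, or other cells.

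LincRNAs are transcribed from between protein-coding genes, are usually spliced like messenger RNAs, and carry no long open reading frame. Several are known from mouse to act in heart development. The zebrafish embryonic heart at this age is a beating tube that has looped into an atrium and a ventricle, with walls of few cell layers. The adult heart has a thick muscular ventricle with coronary vessels, an epicardium, fibroblasts, and more nerve and immune cells. RNA from whole hearts averages over all these cells, so a lower level can reflect fewer cells of a type or less RNA per cell, and these cannot be told apart.

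PCR primer pairs for 16 of the lincRNAs were taken here from the study's primer list, and all 16 were measured in both hearts. The study reports PCR for more lincRNAs than these. The pairs of the 8 that differed between the hearts are shown because they identify RNAs that several results below turn on. All are written 5′ to 3′ in lower case.
TCONS_00028686 forward: ttgcttggtcattgatacttgc
TCONS_00028686 reverse: caagcaagcttccacacaga
TCONS_00000891 forward: tcataattgcatggtggaagc
TCONS_00000891 reverse: tctctccggcattttatcaac
TCONS_00023920 forward: tcgagctttgtttaggctttc
TCONS_00023920 reverse: ttgagtagcaagcgtgacg
TCONS_00040395 forward: aaaccgtcacagcagagaccac
TCONS_00040395 reverse: aaagtccacacagcaggaacac
TCONS_00007801 forward: gatgctggtgacagcggcgg
TCONS_00007801 reverse: ttacagtaaatttctgtcac
TCONS_00009015 forward: gaggagaagaaagaggaggtg
TCONS_00009015 reverse: gtacaagaaaagaggtacaggg
TCONS_00073910 forward: gggactctgaaaaacgtgtc
TCONS_00073910 reverse: ggaaataaaagccgttttgcg
TCONS_00070135 forward: tgtggacaaaactcagttcc
TCONS_00070135 reverse: ctcctctttcacatgaagcg

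Across samples, adult heart samples correlated with each other at a Pearson's r of 0.843 to 0.874 over transcripts, embryonic heart samples at 0.780 to 0.788, and adult with embryonic heart samples at 0.613 to 0.691. Transcripts are not independent replicates, and these r are descriptions. Read numbers were not among the deposited values. If the smallest FPKM values move in steps of a single fragment, their spacing gives a relative depth of 1 to 1.53 in adult heart and 0.914 to 1.16 in embryonic heart, with adult heart replicate 0 set to 1. The summed FPKM ran from 2786000 to 3191000 in adult heart and from 4494000 to 19190000 in embryonic heart, where the highest single transcript of each sample reached 2513000 to 5739000 FPKM. LincRNA shares of the summed FPKM are therefore given below with and without the highest transcripts.

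The first question was how many transcripts differ between the heart of a 4-day embryo and that of the adult. A transcript was called when the adjusted p of limma (Benjamini-Hochberg, over the 69118 transcripts fitted) was below 0.05 and the ratio of mean FPKM was above 2. Of the 62279 transcripts, 13419 were called (21.5%). Adult heart had the higher level for 8423 of these (13.5% of transcripts) and embryonic heart for 4996 (8.02%). Without adult heart replicate 1, the numbers were 6071 and 3616. The median log2 fold change of all transcripts was 0.25, adult minus embryonic. Quantile normalization moved this median to 0.01 and the split of calls to 6791 toward adult heart and 6171 toward embryonic heart. Median-ratio rescaling left the median at 0.22 and the split at 8102 and 5147. Quantile normalization makes the distributions of the samples alike, which by itself draws this median toward 0. Its more even split therefore cannot show how large the excess toward adult heart is.

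Cardiac lincRNAs were called more often toward adult heart than toward embryonic heart. Of the 808, 173 were higher in adult heart (21.4%) and 67 in embryonic heart (8.29%), and 568 were not called. Among the other transcripts, 8250 were higher in adult heart (13.4%) and 4929 in embryonic heart (8.02%). The median log2 fold change was 0.72 for lincRNAs and 0.25 for the others. Quantile normalization lowered both medians, to 0.43 and 0.01, and gave 141 lincRNAs higher in adult heart and 77 in embryonic heart. Of the 6 heart samples left out in turn, adult heart replicate 1 lowered the number of lincRNAs higher in adult heart most, to 112. Regardless of the test, every adult sample lay above every embryonic sample in 279 of the 808 lincRNAs (25.5% of all 62279 transcripts did so), and every embryonic sample above every adult sample in 113 lincRNAs (16.3% of all transcripts). The samples were separate in this way in 171 of the 173 lincRNAs called toward adult heart and in all 67 called toward embryonic heart. The same held for 99.8% of the other transcripts called toward adult heart and 99.7% of those called toward embryonic heart. Among called transcripts, separation was thus near complete in both classes. Of the 568 lincRNAs not called, 108 were separate toward adult heart and 46 toward embryonic heart.

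**Figure D1:**
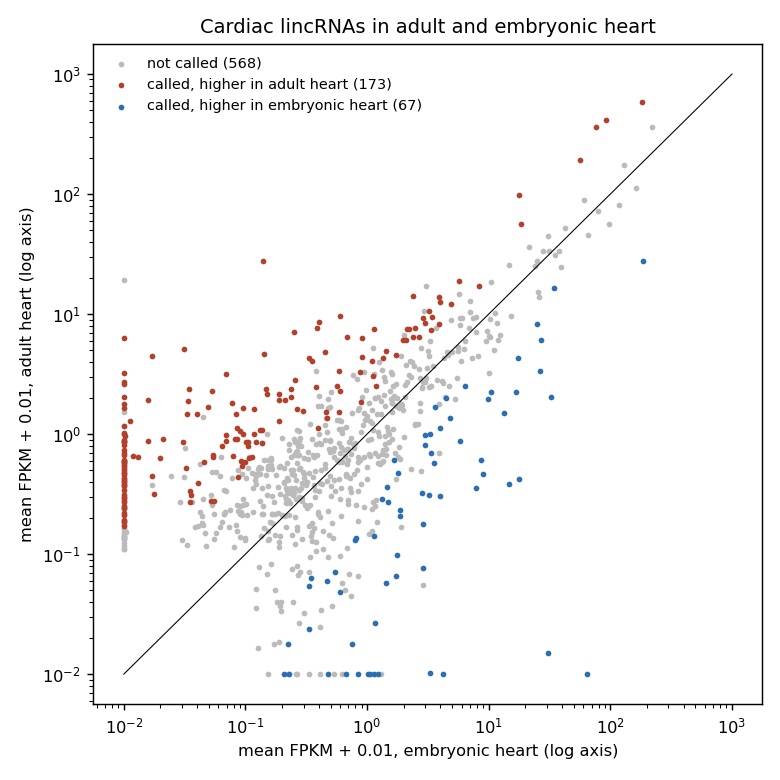
Mean FPKM of each of the 808 cardiac lincRNAs in embryonic heart (x axis) and adult heart (y axis), both with 0.01 added and on log axes. The diagonal marks equal means. The 173 lincRNAs called higher in adult heart lie above it and the 67 called higher in embryonic heart below it, and lincRNAs with a mean of 0 in a heart line up along the axes at 0.01.

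The excess toward adult heart was seen at most expression levels, as shown by the plot of called transcripts by level. For transcripts with a mean of 0.3 FPKM or less over the 6 heart samples, 16.9% of 254 lincRNAs and 9.38% of 21593 other transcripts were higher in adult heart. Between 0.3 and 1 FPKM, the shares were 23.0% of 265 lincRNAs and 14.3% of the others. Between 1 and 3 FPKM, they were 21.9% of 151 lincRNAs and 15.3% of the others, and between 3 and 10 FPKM, 29.0% of 93 lincRNAs and 15.5% of the others. Above 10 FPKM, 20% of 45 lincRNAs and 20.5% of the others were higher in adult heart. LincRNAs higher in embryonic heart rose with level from 3.54% in the lowest range to 20% above 10 FPKM, and the others from 2.34% to 14.3%. When the other transcripts were weighted to the levels of the lincRNAs, 13.4% were higher in adult heart and 7.97% in embryonic heart, which left lincRNAs 7.98 percentage points above the others in the adult direction and 0.317 in the embryonic direction. These shares are descriptions, with no test between the classes.

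**Figure D2:**
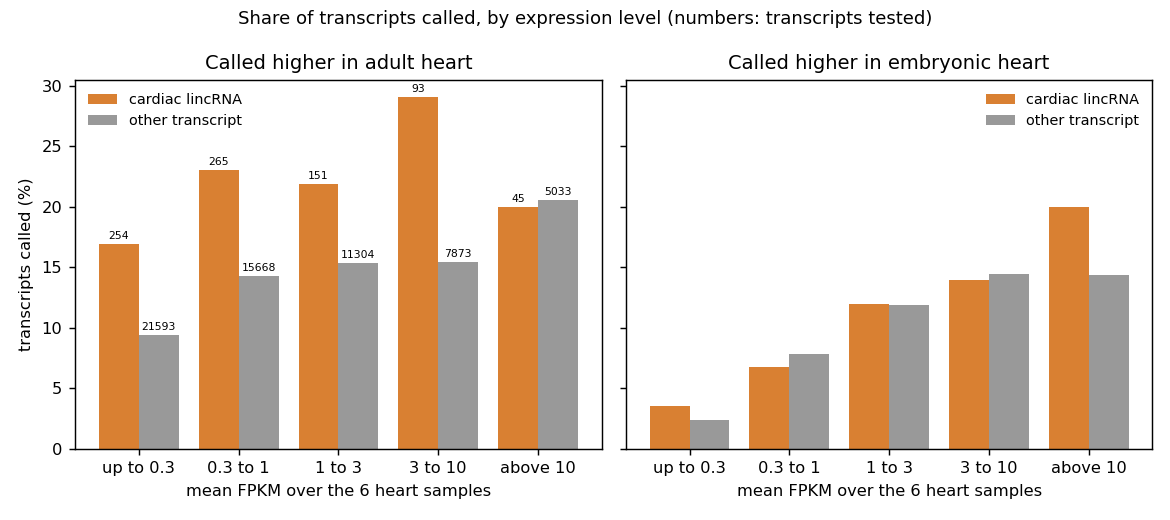
Percent of cardiac lincRNAs (orange) and of other transcripts (grey) called higher in adult heart (left) and in embryonic heart (right), by mean FPKM over the 6 heart samples. The numbers on the bars are transcripts tested. Toward adult heart the orange bars stand above the grey bars in the 4 lower ranges, and above 10 FPKM both are near 20%.

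Much of this excess lay in lincRNAs that passed 0.1 FPKM in adult heart only. The study's list held lincRNAs by their expression in these same samples, so passing in one heart was part of how a lincRNA entered it, and a transcript above 0.1 FPKM in one heart only can be called in one direction only. There were 192 such lincRNAs for adult heart (23.8% of lincRNAs), of which 52.6% were called, against 12402 other transcripts (20.2%), of which 30.7% were called. For embryonic heart there were 69 lincRNAs (8.54%), of which 37.7% were called, and 9277 others (15.1%), of which 17.3% were called. Among transcripts above 0.1 FPKM in both hearts, 72 of 547 lincRNAs (13.2%) and 4447 of 39792 others (11.2%) were higher in adult heart, and 41 lincRNAs (7.50%) and 3328 others (8.36%) were higher in embryonic heart. Weighted to the levels of these lincRNAs, the others came to 10.2% and 7.53%, so that the lincRNAs stood 2.99 percentage points above them in the adult direction. The comparison within both hearts was added after seeing the data.

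Over all lincRNAs tested, the direction of the calls was more uneven among unannotated than among known ones, by counts with no test. Toward adult heart this lay mainly in lincRNAs above 0.1 FPKM in adult heart only. Known lincRNAs, those with an entry in Ensembl or zflncRNApedia, were higher in adult heart in 61 of 388 cases (15.7%) and higher in embryonic heart in 45 (11.6%), with a median log2 fold change of 0.37. Unannotated lincRNAs, which the study assembled from these samples, were higher in adult heart in 112 of 420 cases (26.7%) and in embryonic heart in 22 (5.24%), with a median of 0.94. Unannotated lincRNAs made up 64.7% of the lincRNAs higher in adult heart and 32.8% of those higher in embryonic heart. Above 0.1 FPKM in both hearts, the shares toward adult heart were similar, at 12.8% of 266 known and 13.5% of 281 unannotated lincRNAs. Toward embryonic heart they were 9.40% and 5.69%. Above 0.1 FPKM in adult heart only, where a call can go in one direction only, 27 of 72 known (37.5%) and 74 of 120 unannotated lincRNAs (61.7%) were called. These 74 were most of the 112 unannotated lincRNAs higher in adult heart.

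By number of exons, with known and unannotated lincRNAs pooled, the shares toward adult heart lay close together and above the 13.5% of all transcripts. LincRNAs with 1 exon, all of them known, were higher in adult heart in 16 of 73 cases (21.9%) and in embryonic heart in 10 (13.7%, against 8.02% of all transcripts). For 2 exons the numbers were 98 (20.6%) and 32 (6.72%) of 476, and for 3 or more exons 59 (22.8%) and 25 (9.65%) of 259. The pooled shares hid a difference by annotation. Within 2-exon lincRNAs, 16 of 153 known (10.5%, below the 13.5%) and 82 of 323 unannotated lincRNAs (25.4%) were higher in adult heart. With 3 or more exons, the shares were 17.9% of 162 known and 30.9% of 97 unannotated lincRNAs. Of the 83 lincRNAs with an orthologous region in human or mouse, as the study listed them, 13 were higher in adult heart (15.7%) and 8 in embryonic heart (9.64%), with a median log2 fold change of 0.24. For the 725 lincRNAs without such a region, the shares were 22.1% and 8.14% and the median was 0.75. Of the 209 lincRNAs listed as cardiac-specific, which are low or absent in muscle, 52 were higher in adult heart (24.9%) and 20 in embryonic heart (9.57%).

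LincRNAs called in either direction were mostly RNAs of low level whose difference was large, and so were the other transcripts called. The call itself required a ratio above 2. The 173 lincRNAs higher in adult heart had a median of 1.15 FPKM in adult heart and 0.0724 FPKM in embryonic heart, and 34 of them were listed at 0 in all 3 embryonic samples. The 67 higher in embryonic heart had a median of 2.86 FPKM in embryonic heart and 0.280 FPKM in adult heart, and 10 were listed at 0 in all 3 adult samples. Where both means were above 0, the median ratio was 10.8 for those higher in adult heart and 7.84 for those higher in embryonic heart. For the other transcripts called, these ratios were 7.97 and 6.71, and the medians in the higher heart were 1.60 and 3.09 FPKM. In muscle, the median was 0.486 FPKM for lincRNAs higher in adult heart and 0.516 FPKM for those higher in embryonic heart. A mean above 10 FPKM in the higher heart was reached by 14 lincRNAs in each direction. These were 8.09% of those higher in adult heart and 20.9% of those higher in embryonic heart, against 17.4% and 21.8% of the other transcripts called. A value of 0 can be a failed estimate as well as an absent RNA.

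The lincRNAs with the largest rise toward adult heart were low in most embryonic samples. TCONS_00028686 lies on chromosome 16 of Zv9 (chr16:18902010-18907533), has 2 exons and 5464 nt, and is listed as unannotated. The study states, however, that its location overlaps lncH_009, a lincRNA already described in adult zebrafish heart. The level of TCONS_00028686 was 24.3, 31.0, and 28.3 FPKM in the adult heart samples and 0.0655, 0.0991, and 0.222 FPKM in the embryonic heart samples, with a mean of 0.0198 FPKM in muscle. Every adult sample lay far above every embryonic sample, and the log2 fold change was 6.99 ± 0.34 (SE, adjusted p = 7.83e-06). TCONS_00022833 (chr14:3549391-3551061, unannotated) had 6.96, 4.24, and 4.03 FPKM in adult heart and 0.0646, 0, and 0 FPKM in embryonic heart (log2 fold change 5.41 ± 0.43 SE, adjusted p = 9.32e-05). TCONS_00051646 (ENSDART00000151198, a single exon of 890 nt at chr20:55449014-55449904) had 7.48, 7.24, and 4.07 FPKM in adult heart and was listed at 0 in each embryonic heart sample (adjusted p = 2.16e-05). Its mean in muscle was 3.96 FPKM, so it was not restricted to heart. TCONS_00033690, a lincRNA of 189 nt catalogued as lnc_ahsa1l_1 on chromosome 17, had 5.61, 8.32, and 7.50 FPKM in adult heart, while embryonic replicate 1 had 0.716 FPKM and the other embryonic samples were listed at 0. TCONS_00017587 on chromosome 13 had 15.2, 7.45, and 2.90 FPKM in adult heart and 0, 0, and 1.19 FPKM in embryonic heart, and its adjusted p of 0.00835 became 0.0512 when only the 6 heart samples were fitted.

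Levels varied among the lincRNAs with the largest changes toward embryonic heart. TCONS_00045191 (ENSDART00000155541, 3 exons, chr2:362942-365060) had 33.5, 24.6, and 34.0 FPKM in embryonic heart. In adult heart it had 0, 0.0148, and 0.000536 FPKM, and in muscle a mean of 0.0887 FPKM. The RNA was thus close to absent from both adult tissues. The log2 fold change was -8.18 ± 0.51 (SE, adjusted p = 2.67e-05) and ran from -4.97 to -11.1 over the alternatives, of which a pseudocount of 1 and one of 0.01 gave the ends. TCONS_00053197 (unannotated, chr21:38720529-38726055) had 13.1, 16.1, and 14.5 FPKM in embryonic heart and 0.000303, 0.650, and 0.466 FPKM in adult heart (log2 fold change -5.38 ± 0.89 SE, adjusted p = 0.00355). TCONS_00042736 (unannotated, chr19:50167804-50170344) had 21.6, 19.2, and 12.4 FPKM in embryonic heart and 0.420, 0.543, and 0.275 FPKM in adult heart (log2 fold change -5.12 ± 0.46 SE, adjusted p = 0.000188). Both were also low in muscle in these samples, at means of 0.166 and 1.01 FPKM. TCONS_00027552 (ENSDART00000153520) was listed at 0 in every adult heart sample and had 5.36, 0.858, and 6.43 FPKM in embryonic heart. TCONS_00076119 (ENSDART00000150663, 194 nt) was at or near 0 in adult heart and had 5.18, 1.49, and 3.20 FPKM in embryonic heart. TCONS_00085215, catalogued as mstx3_1, was listed at 0 in every adult heart sample and had 28.0, 22.4, and 142.5 FPKM in embryonic heart. With a single exon of 114 nt, it is shorter than the 200 nt by which a lincRNA is usually defined, and 1 sample held most of its signal.

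**Figure D3:**
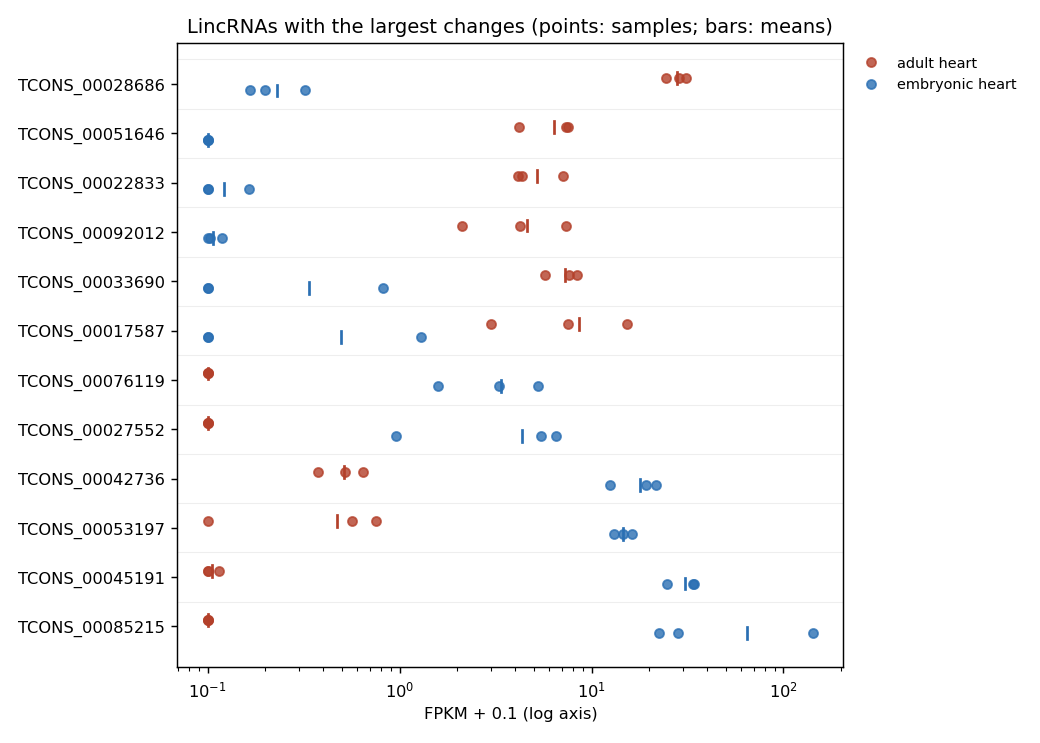
FPKM with 0.1 added (log axis) of the 6 lincRNAs with the largest log2 fold change in each direction, with 1 point per sample and a bar at the mean. Adult (red) and embryonic (blue) samples do not overlap in any of the 12, because the 12 were chosen for this. The lower heart is at or near the added 0.1 in most of them.

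Most of the lincRNAs called here lie outside the 51 that the study listed as fetal lincRNAs (35 on the adult side and 16 on the embryonic side). These were chosen by the study on the same samples at a 4-fold difference, so their directions are no independent evidence. All 16 of the embryonic and 30 of the 35 adult entries were called. Outside the list, 143 of 757 lincRNAs were higher in adult heart (18.9%, against 13.5% of all transcripts). In embryonic heart 51 were higher (6.74%, against 8.02%). Leaving out the listed lincRNAs, which were chosen for a difference, lowers both shares but not those of all transcripts. Over all 808 lincRNAs the shares were 21.4% and 8.29%. The embryonic share outside the list therefore cannot be read as below that of all transcripts. The calls here needed a ratio above 2 and not 4. The ratio was 2 to 4 in 34 of the 173 lincRNAs higher in adult heart and in 12 of the 67 higher in embryonic heart. A ratio above 4 still gave 194 called lincRNAs, 139 higher in adult and 55 in embryonic heart. Why the list is shorter was not tested. Of the 12 lincRNAs with the largest changes, only TCONS_00028686 and TCONS_00042736 are on it.

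A few lincRNAs made up a large share of the lincRNA signal in both hearts. The 10 highest lincRNAs of each sample held 54.0% to 58.5% of the summed lincRNA FPKM in adult heart and 42.3% to 45.3% in embryonic heart. TCONS_00040395 (ENSDART00000155270, a single exon of 1236 nt, chr19:36916961-36918197) was the highest lincRNA of adult heart, with 739.1, 499.5, and 511.3 FPKM, against 153.7, 253.3, and 141.8 FPKM in embryonic heart. The log2 fold change was 1.70 ± 0.27 (SE, adjusted p = 0.00281), and the mean in muscle was 51 FPKM. TCONS_00023920 (unannotated, 7506 nt, chr14:48566236-48573747) had 305.2, 604.3, and 339.8 FPKM in adult heart and 78.6, 88.6, and 108.3 FPKM in embryonic heart (log2 fold change 2.12 ± 0.26 SE, adjusted p = 0.00081). TCONS_00000540, on an unplaced sequence of the assembly, had 194.1, 188.0, and 191.3 FPKM in adult heart and 36.8, 71.2, and 60.4 FPKM in embryonic heart, and only 0.267 FPKM on average in muscle (log2 fold change 1.82 ± 0.29 SE, adjusted p = 0.00307). TCONS_00079130 on chromosome 4 had 503.8, 286.4, and 291.6 FPKM in adult heart and 47.3, 83.3, and 95.8 FPKM in embryonic heart. Although its samples did not overlap, its adjusted p of 0.0319 (log2 fold change 2.27 ± 0.62 SE) moved to between 0.0578 and 0.113 when any of the 6 heart samples was left out, and to 0.0781 under quantile normalization.

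TCONS_00048108 (ENSDART00000152390, chromosome 20) was the most abundant lincRNA of embryonic heart by mean and did not pass the test. Its levels were 452.6, 346.3, and 287.0 FPKM in adult heart and 306.4, 192.3, and 165.7 FPKM in embryonic heart, which overlap (log2 fold change 0.73 ± 0.26 SE, adjusted p = 0.0842). TCONS_00009015, catalogued as lnc_rps25_1, had the clearest change toward embryonic heart among the abundant lincRNAs. This RNA of 6 exons and 1521 nt (chr10:40425286-40428910) had 24.3, 25.4, and 33.8 FPKM in adult heart and 192.9, 184.6, and 174.3 FPKM in embryonic heart (log2 fold change -2.73 ± 0.15 SE, adjusted p = 1.76e-05). TCONS_00017202, TCONS_00028652, and TCONS_00064425 were above 80 FPKM on average in both hearts and were not called (adjusted p = 0.264, 0.161, and 0.366). For TCONS_00023933, the adjusted p was 0.0482 but the ratio of the means stayed below 2 (56.5 FPKM in adult and 97.7 FPKM in embryonic heart).

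**Figure D4:**
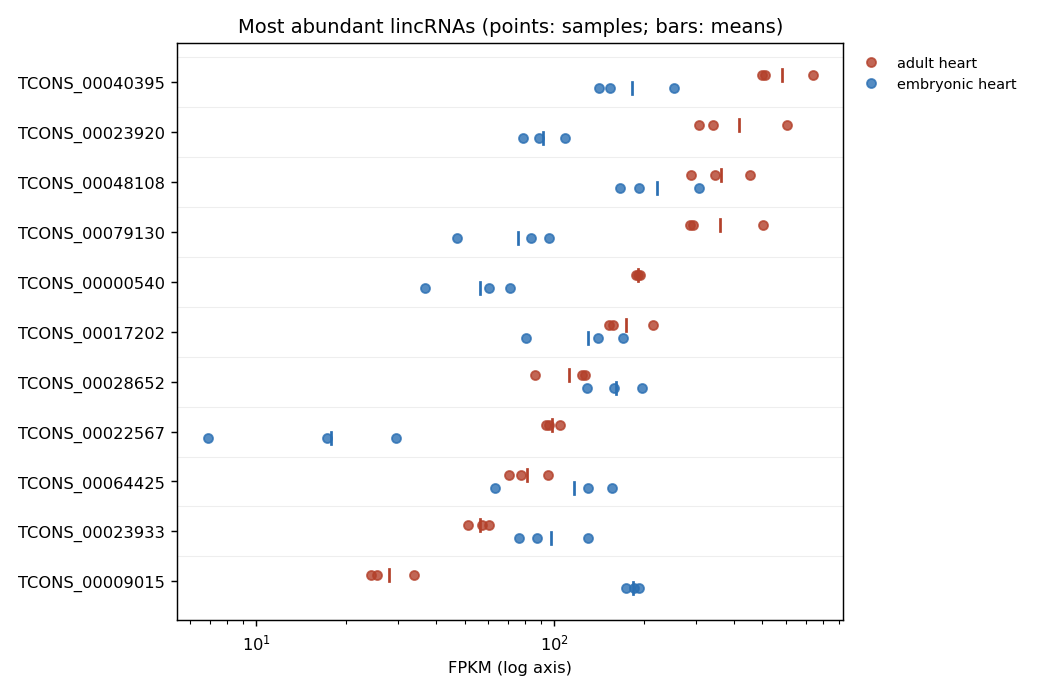
FPKM (log axis) of the 11 lincRNAs that were among the 8 highest of either heart, with 1 point per sample and a bar at the mean. TCONS_00040395 leads adult heart at a mean of 583.3 FPKM, TCONS_00009015 is the only one of the 11 called higher in embryonic heart, and 5 of the 11 were not called.

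Among the 16 lincRNAs whose primer pairs were taken here, 5 were higher in adult heart, 3 in embryonic heart, and 8 were not called. Over all transcripts 13.5% were higher in adult and 8.02% in embryonic heart, and a set of 16 is too small to read against these shares. Besides those above, TCONS_00000891, which lies on an unplaced sequence and is 5326 nt long after splicing, had 2.12, 2.84, and 1.93 FPKM in adult heart and at most 0.122 FPKM in any embryonic sample (log2 fold change 4.15 ± 0.44 SE, adjusted p = 0.000423). TCONS_00007801 (chr10:4917864-4922140) had 62.2, 47.5, and 58.4 FPKM in adult heart and 19.1, 19.5, and 17.1 FPKM in embryonic heart (log2 fold change 1.58 ± 0.23 SE, adjusted p = 0.00193). TCONS_00073910, catalogued as zgc:153240pa_1 (a single exon, chr3:26674148-26675088), had 1.86, 2.15, and 2.02 FPKM in adult heart and 37.9, 26.5, and 33.8 FPKM in embryonic heart (log2 fold change -3.95 ± 0.24 SE, adjusted p = 2.64e-05). TCONS_00070135 (ENSDART00000157382) on the same chromosome had at most 0.0947 FPKM in adult heart and 2.64, 2.40, and 3.53 FPKM in embryonic heart (log2 fold change -4.16 ± 0.40 SE, adjusted p = 0.00025).

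Few lincRNAs could be shown to be at similar levels in both hearts. The 95% interval of the log2 fold change lay within -1 to 1 for 34 of the 808 lincRNAs (4.21%). Above 10 FPKM in both hearts there were 31 lincRNAs, of which 6 were called higher in adult heart, 2 higher in embryonic heart, and 9 had an interval within -1 to 1. TCONS_00022936 (unannotated, chromosome 14), which has a primer pair, was close to equal, with 99.7, 60.1, and 57.2 FPKM in adult heart and 85.1, 73.1, and 77.1 FPKM in embryonic heart (log2 fold change -0.16, 95% interval -0.71 to 0.39). TCONS_00038369 (ENSDART00000148004, chromosome 18) had a log2 fold change of 0.14 (interval -0.40 to 0.69). Intervals were wider at low levels. What kept most lincRNAs from an interval within -1 to 1, spread or a true difference, was not tested. The median width of the interval for lincRNAs was 2.62 on the log2 scale at 0.3 FPKM or less and 1.13 above 10 FPKM, and the median SD between replicates of a lincRNA at 0.3 to 1 FPKM was 0.51 in adult and 0.85 in embryonic heart.

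More lincRNAs were detected in each adult sample than in any embryonic sample. Above 0.1 FPKM there were 668, 703, and 707 of the 813 lincRNAs in the adult heart samples and 533, 542, and 561 in the embryonic heart samples (difference of the means 147.3). The exact two-sided permutation test gave p = 0.1, the smallest value that 3 samples against 3 allow. However, the study listed these lincRNAs for expression above 0.1 FPKM in these same samples. Of them, 249 were on its adult heart list only and 83 on its embryonic heart list only. The difference in detection therefore partly restates how the list was made, and the test cannot separate the 2. Above 1 FPKM the difference of the means was 38.7. LincRNAs listed at 0 numbered 29 to 51 in adult and 131 to 165 in embryonic samples. Detection of all transcripts moved the same way, at 47079 to 50347 in adult heart and 42568 to 43210 in embryonic heart, and the relative depth was 1.26 on average in adult and 1.03 in embryonic heart, which overlap. The part of depth in these counts was not tested.

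The summed lincRNA FPKM was 4848, 4390, and 3905 in adult heart and 3322, 3075, and 3009 in embryonic heart. As a percent of all summed FPKM, this was 0.138 to 0.152 in adult heart and 0.0157 to 0.0739 in embryonic heart (exact two-sided permutation p = 0.1, the smallest possible). The 100 highest other transcripts took up most of the total. Without them, lincRNAs made up 0.823% to 0.884% in adult heart and 0.667% to 0.760% in embryonic heart, and the hearts still did not overlap. As for detection, the study listed these lincRNAs for expression in these same samples. The test cannot separate the difference in the sums from how the list was made.

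Bidirectional lincRNAs start opposite a protein-coding neighbour. Of the 32 that the study listed, 5 were higher in adult heart (15.6%, against 13.5% of all transcripts) and 7 in embryonic heart (21.9%, against 8.02%), with no test of the set. Both lincRNAs beside tbx2b, a T-box transcription factor that restrains chamber differentiation at the atrioventricular canal, were higher in embryonic heart. TCONS_00026988 (ENSDART00000155403) had 18.6, 7.97, and 13.3 FPKM in embryonic heart and 1.44, 1.13, and 1.94 FPKM in adult heart (log2 fold change -3.01 ± 0.33 SE, adjusted p = 0.000453). TCONS_00026989 (ENSDART00000155933), which overlaps it on chromosome 15, had 4.02, 1.86, and 4.83 FPKM in embryonic heart and 0.438, 0.684, and 0.578 FPKM in adult heart (log2 fold change -2.37 ± 0.39 SE, adjusted p = 0.00354). The lincRNA beside calm2a, which encodes the calcium sensor calmodulin, was listed at 0 in every adult heart sample and had 0.697, 0.313, and 1.47 FPKM in embryonic heart. The lincRNAs beside usp46, a deubiquitinase gene, and sdr39u1, zgc:77056, and wdr6 were also higher in embryonic heart. The call beside wdr6 (TCONS_00097990, adjusted p = 0.0361) was lost in 7 of 14 alternatives, with an adjusted p of up to 0.104.

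In the other direction, the lincRNA beside gas6, which encodes a secreted ligand of receptor tyrosine kinases, had 1.41, 0.495, and 0.473 FPKM in adult heart and 0, 0, and 0.163 FPKM in embryonic heart. Its call (adjusted p = 0.0269) was lost in 8 of 14 alternative settings and samples left out, with an adjusted p of up to 0.083. The lincRNA beside coq7, a gene of coenzyme Q synthesis, was listed at 0 in each embryonic heart sample and had 0.522, 0.252, and 0.411 FPKM in adult heart. Those beside slmo1, zgc:112408, and BX950868.1 were also higher in adult heart. The call beside BX950868.1 (TCONS_00075626, adjusted p = 0.0477) was lost in 10 of 14 alternatives, with an adjusted p of up to 0.15. The lincRNAs beside meis1 and id2a, which encode transcriptional regulators, and beside cacna1g, a T-type calcium channel gene, were low in both hearts and were not called (adjusted p = 0.772, 0.326, and 0.339). The levels of the neighbouring genes themselves could not be read, since the values carry no gene names.

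LincRNA transcripts that overlap on the genome were not always called together. The 813 lincRNAs formed 730 loci, of which 65 held more than 1 lincRNA transcript (148 in all). In 31 of these loci no transcript was called, in 13 all tested transcripts were called in the same direction (9 higher in adult and 4 in embryonic heart), and in 19 only some were called. A single locus, on chromosome 7, had calls in both directions. There, TCONS_00092012 (ENSDART00000125757, chr7:69800421-69801306) had 4.15, 7.29, and 2.01 FPKM in adult heart and at most 0.0181 FPKM in embryonic heart (log2 fold change 5.24 ± 0.64 SE, adjusted p = 0.000793). TCONS_00092013 (ENSDART00000155225, chr7:69801230-69801994), which begins before the other ends, had 1.02, 2.32, and 0.724 FPKM in adult heart and 4.44, 3.33, and 6.63 FPKM in embryonic heart (log2 fold change -1.85 ± 0.48 SE, adjusted p = 0.0249). The second call was lost in 6 of 14 alternative settings and samples left out, including the fit of only the heart samples and the leaving out of adult replicates 0 or 2 or embryonic replicates 0 or 2.

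Nearly identical transcripts can split reads in uncertain ways. Whether this had a part in the loci where only some members were called was not tested. On chromosome 13, TCONS_00019501 and TCONS_00019502 share their start and nearly their end. The first had 2.14, 1.33, and 1.95 FPKM in adult heart and at most 0.202 FPKM in embryonic heart (adjusted p = 0.00206). The second had 0.00268, 0.746, and 0.767 FPKM in adult heart and 1.996, 3.18, and 1.67 FPKM in embryonic heart (adjusted p = 0.0584). Also on chromosome 13, TCONS_00017644 had 2.22, 0.671, and 0.952 FPKM in adult heart and at most 0.00266 FPKM in embryonic heart, while TCONS_00017643, over the same span, had 0.818, 0.766, and 0.413 FPKM in adult heart and 1.78, 1.34, and 1.18 FPKM in embryonic heart. On chromosome 19, TCONS_00041526 (ENSDART00000151039) was higher in embryonic heart, with 26.6, 29.9, and 24.5 FPKM against 6.24, 5.24, and 6.72 FPKM in adult heart (log2 fold change -2.14 ± 0.17 SE, adjusted p = 9.55e-05), and its overlapping partner TCONS_00041527 stayed below 1 FPKM in every heart sample. The locus of the abundant TCONS_00023920 held 2 further lincRNAs. Of these, TCONS_00022567 was also higher in adult heart (96.3, 104.2, and 93.6 FPKM against 6.86, 17.2, and 29.3 FPKM). TCONS_00022566 was not called (adjusted p = 0.072), but its log2 fold change of 2.13 was close to the 2.12 of TCONS_00023920.

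**Figure D5:**
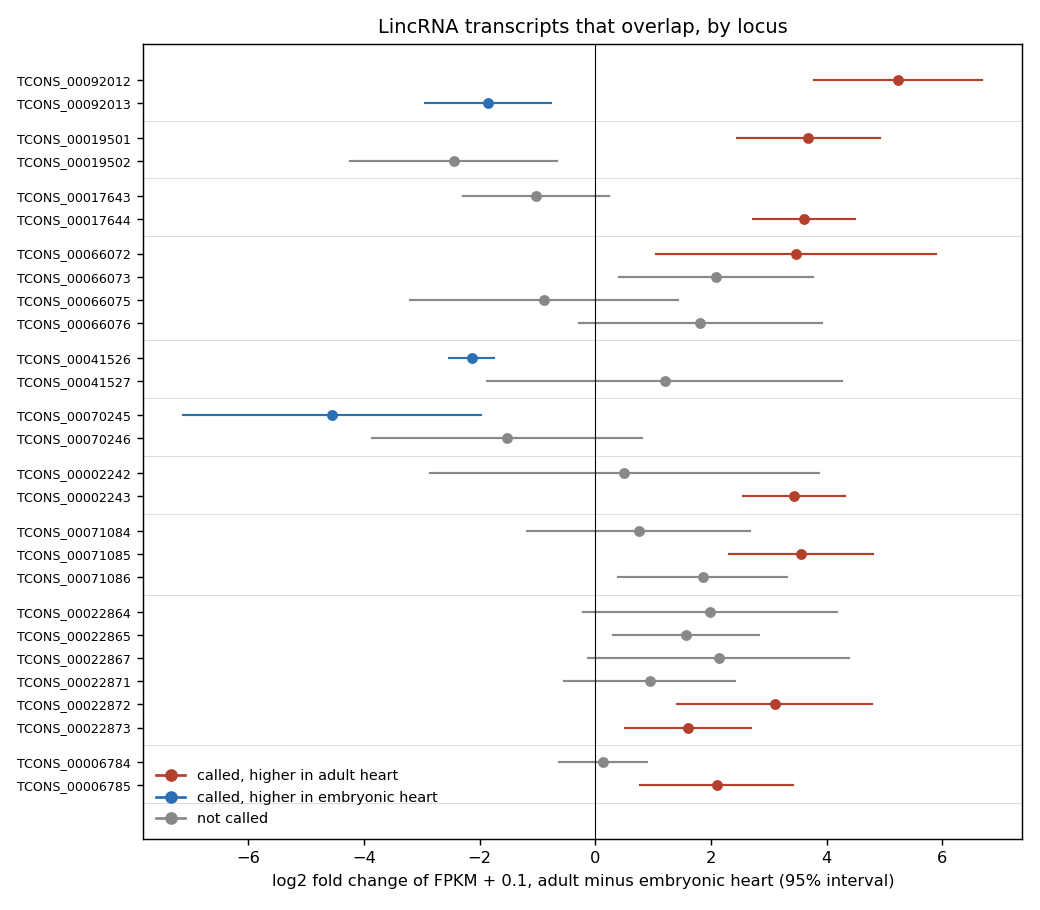
Log2 fold change of FPKM + 0.1, adult minus embryonic heart, with its 95% interval, for the transcripts of the 10 loci with the widest range among loci where some or opposing calls were made. Each block is a locus. TCONS_00092012 and TCONS_00092013 at the top are the only pair called in opposite directions, and most grey intervals cross or come near 0.

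Of the transcripts outside the lincRNA list, 4 are named as those with the largest fitted changes and no overlap. TCONS_00001224 had 101100, 37270, and 84200 FPKM in adult heart and TCONS_00035935 had 53200, 55910, and 42100 FPKM, and both were listed at 0 in every embryonic heart sample. In the opposite direction, TCONS_00023544 had 4518, 4201, and 5150 FPKM in embryonic heart and TCONS_00079790 had 1850, 1680, and 1876 FPKM, and both were listed at 0 in every adult heart sample. TCONS_00023544 reached 4576 to 6722 FPKM in muscle, so its 0 in adult heart was not shared by the other adult tissue. TCONS_00001224 had 33750, 17580, and 0 FPKM in the muscle samples, so a listed 0 can differ between replicates of one tissue. Whether the zeros of these transcripts are absent RNAs or failed estimates was not tested. Of the other transcripts higher in adult heart, 993 of 8250 (12%) were listed at 0 in all embryonic samples, compared with 34 of the 173 lincRNAs (19.7%). Of those higher in embryonic heart, 144 of 4929 (2.92%) were listed at 0 in all adult samples, compared with 10 of the 67 lincRNAs (14.9%). These shares are descriptions, with no test between the classes.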

How the data were processed

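Total RNA of 9 samples was sequenced (3 each of embryonic heart, adult heart, and adult muscle). The authors aligned the reads with TopHat 2.0.12 to Zv9, assembled transcripts with Cufflinks 2.2.1, and deposited FPKM values per transcript from Cuffnorm. The scaling option of Cuffnorm is not given in the sources used here. All 9 columns were mapped by title. Values were fitted as log2(FPKM + 0.1) with limma 3.58.1 in R 4.3.3, with the 3 groups in 1 fit and an intensity trend, two-sided, and tested on simulated data. Low transcripts have their change understated on this scale. The replicate number was not used as a block, since deviations of same-numbered heart samples had r of 0.0437, 9.91e-05, and 0.0259. LincRNA lists, positions, and primers came from the study's supplementary tables. Other calculations used Python 3.11.15. Coordinates are printed as in those tables. The length of all 73 lincRNAs with 1 exon equals end minus start there, so whether starts count from 0 or 1 is not settled.

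Members and lists were chosen with earlier results of these data known. Named lincRNAs were the 6 with the largest non-overlapping changes in each direction, the 8 highest in each heart, those with primers, bidirectional and overlapping ones with calls or with named neighbours, the 3 above 10 FPKM in both hearts with changes nearest 0, and 2 other transcripts per direction. Alternatives covered the pseudocount, trend, samples, scaling, weights, block, filters, thresholds, and leaving out each heart sample.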

Additional observations from a re-analysis of the deposited data

How the results depend on the processing

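Counts within 1.5 times the reported ones were obtained under other pseudocounts (1 and 0.01), no trend, only the 6 heart samples, median-ratio rescaling, quantile normalization, array weights, and no filter, for both directions and for lincRNAs and all transcripts alike. An adjusted p below 0.01 gave 6907 transcripts (4109 higher in adult heart, 2798 in embryonic heart) and 125 lincRNAs (85 and 40). A mean above 1 FPKM gave 5519 transcripts higher in adult heart and 151 lincRNAs, of which 98 were higher in adult heart, with fewer transcripts tested. A ratio above 4 gave 3311 transcripts higher in embryonic heart. Counting by samples that do not overlap was an alternative added after seeing the data. Counted so, lincRNAs were -2.03 percentage points from the others in the embryonic direction and 9.58 points above them in the adult direction. Among transcripts above 0.1 FPKM in both hearts, also added later, lincRNAs stood 2.99 points above the others in the adult direction. The cause was not tested for any of these. Further alternatives added after seeing the data (leaving out lincRNAs under 200 nt, requiring no overlap, and adjusting over the 62279 transcripts only) changed no count by more than 1.5 times.

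Leaving out 1 heart sample at a time gave 9687 to 13357 transcripts, of which 6071 to 7999 were higher in adult heart and 3616 to 5358 in embryonic heart. LincRNAs ranged from 166 to 230, with 112 to 162 higher in adult heart and 51 to 70 in embryonic heart. A replicate block gave 11659 transcripts (7162 and 4497) and 206 lincRNAs (149 and 57), although the numbers did not pair the samples. Of the 240 lincRNA calls, 161 to 232 remained in the same direction under each alternative that kept the thresholds, apart from the filter at 1 FPKM, where 145 did, and none changed direction. Of the 93 lincRNAs named by the rules, 54 were called. Of these, 38 kept the call under each of 14 refitted alternatives, while 16 lost it under at least 1. Of the 39 not called, 9 were called under at least 1. The fits with no filter and with a mean above 1 FPKM were not among the 14. The depth of each sample is known only relative to the others, and with 3 samples per heart the exact tests could not go below 0.1.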

Other observations

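The calls were spread over the chromosomes of Zv9, and the following were picked after seeing the counts, with no test between them. Over all lincRNAs, 21.4% were higher in adult and 8.29% in embryonic heart (13.5% and 8.02% of all transcripts). All 11 called lincRNAs of chromosome 25 (30 tested) and all 7 of chromosome 24 (25 tested) were higher in adult heart, as were 10 of the 11 called on chromosome 1 (27 tested). Chromosomes 11, 12, 17, and 22 also had calls toward adult heart only (6, 5, 5, and 3). Some of these counts hold overlapping transcripts of one locus, such as TCONS_00066144 and TCONS_00066146 on chromosome 25. On chromosome 21, 3 of 21 were higher in embryonic heart and none was higher in adult heart. On chromosome 10, 5 of 22 were called in each direction. On unplaced sequences, 13 of 57 were higher in adult heart and 1 in embryonic heart.

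TCONS_00069379 (ENSDART00000155206, 122 nt, beside BX927317.3) was chosen after its values were seen. It was listed at 0 in adult heart replicate 0 and had 49.97 and 8.06 FPKM in the other 2 adult heart samples, while it was listed at 0 in all embryonic heart samples and in all muscle samples. It was not called (adjusted p = 0.0851).

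At a locus on chromosome 8 (chr8:50731535-50737791), also chosen after its values were seen, 3 overlapping unannotated lincRNAs were all higher in adult heart and listed at 0 in each muscle sample. TCONS_00098669 had 3.06, 2.14, and 1.88 FPKM in adult heart and at most 0.0724 FPKM in embryonic heart (log2 fold change 4.33, adjusted p = 0.000247). TCONS_00098670 had 1.09, 2.04, and 1.74 FPKM and at most 1.82e-05 FPKM (adjusted p = 0.00024). TCONS_00098671 had 5.60, 1.44, and 2.91 FPKM in adult heart and 1.08, 0.161, and 0.484 FPKM in embryonic heart (adjusted p = 0.0298).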
